A study of Mus musculus with 21 samples.

Results

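Transcripts of 4 channel genes, Hcn4, Hcn2, Cacna1g and Cacna1h, were followed in the left ventricle (LV) of 21 male mice. These 4 genes were taken from the 55450 Ensembl genes of the table of counts by their symbols, because Hcn4 and Cacna1g had been lower in R403Q hearts on the control diet, and all 4 passed the filter on low counts that left 17309 genes for testing. The mice were of the 129S6/SvEv strain and fell into 4 groups: WT-CD (n = 5) and R403Q-CD (n = 7) were wild-type and R403Q animals fed a control diet, and WT-EMPA (n = 5) and R403Q-EMPA (n = 4) were animals of either genotype fed that diet with empagliflozin (EMPA). R403Q mice carried 1 mutant allele of Myh6, the cardiac α-myosin heavy chain gene, and the label writes this genotype as Myh6+/R404Q (R403Q). The mutation models human hypertrophic cardiomyopathy. The control diet drew 10% of its energy from lard, and the EMPA diet was the same diet with 0.15 mg of empagliflozin, an inhibitor of the renal sodium-glucose cotransporter, per g. Diets began at 9 to 10 weeks of age. The study's text gives an age of 12 weeks and 2 weeks of treatment for the RNA samples, whereas the deposited description gives 16 weeks of treatment. Every mouse gave 1 library, with totals between 23491535 and 43539684 counts (median 33329649).

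HCN channels are tetrameric cation channels that open when the membrane hyperpolarizes. They carry the funny current, which drives the diastolic depolarization of pacemaker cells, and cyclic AMP binds to them directly and eases their opening. Hcn4 encodes the main HCN subunit of the sinoatrial node and is also a gene of the embryonic heart, whereas Hcn2 is known as the common HCN subunit of the ventricle. T-type calcium channels open at more negative voltages than the L-type channels that trigger contraction. Cacna1g and Cacna1h encode the T-type pores of the heart, which are found in the nodes, in the conduction system and in the fetal ventricle. Both families are known to be expressed again in the ventricles of some hypertrophied or failing hearts.

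The genes lie on 4 chromosomes of GRCm38. Hcn4 (ENSMUSG00000032338) is at chr9:58823412-58863175 on the plus strand, and Hcn2 (ENSMUSG00000020331) is at chr10:79716634-79736108 on the plus strand. Cacna1g (ENSMUSG00000020866) is at chr11:94408391-94474198 and Cacna1h (ENSMUSG00000024112) at chr17:25374285-25433783, both on the minus strand. Exons of Cacna1h share 158 bp with exons of Tpsg1 on the opposite strand, so that its low counts could hold reads of that gene if the counting took no account of strand. The authors describe the counted pairs as same strand, from which it is not plain whether counting was strand-specific. Promoter windows are printed for Hcn4 and Hcn2 to set the genes side by side at their start sites. Each window holds the 250 bases before the RefSeq start in GRCm38.p6, 5′ to 3′ on the plus strand, and capitals mark the GC box GGGCGG read on either strand.
Hcn4, chr9:58822699-58822948: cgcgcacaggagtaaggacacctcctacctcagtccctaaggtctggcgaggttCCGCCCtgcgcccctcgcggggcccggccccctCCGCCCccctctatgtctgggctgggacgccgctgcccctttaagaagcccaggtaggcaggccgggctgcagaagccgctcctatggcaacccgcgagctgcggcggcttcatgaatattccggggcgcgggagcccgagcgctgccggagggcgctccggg
Hcn2, chr10:79716384-79716633: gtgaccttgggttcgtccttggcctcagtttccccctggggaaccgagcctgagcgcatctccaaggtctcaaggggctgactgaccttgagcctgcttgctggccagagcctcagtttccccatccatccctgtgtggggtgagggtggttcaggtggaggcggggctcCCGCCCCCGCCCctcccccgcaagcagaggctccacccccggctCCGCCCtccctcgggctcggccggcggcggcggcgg
Both windows were rich in G and C, at 71.2% for Hcn4 and 70.4% for Hcn2. The Hcn4 window held 25 CpG dinucleotides and 2 GC boxes, and the Hcn2 window 16 CpG dinucleotides and 3 GC boxes. A GC box occurs in 32.7% of all 32851 RefSeq windows of this length. The E-box letters CACGTG were in neither window on either strand, while 6.02% of all windows hold them. The same was true of GATAA (22.6% of all windows), of the letters AAGTG (40.7%) and of the TATA box letters TATAAA (12.4%). The RefSeq start of Hcn4 lies 463 bases before the start of the gene in the GENCODE annotation from which the coordinates were read.

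Levels of different genes were compared per kilobase of exon, as CPM (counts scaled to library size and TMM factor) divided by the length of all exons of the gene. In WT-CD hearts Hcn2 was the most abundant of the 6 HCN and T-type genes compared, at 7.82 ± 0.99 CPM per kilobase (SD, n = 5). Cacna1g followed at 4.01 ± 0.391 and Hcn4 at 2.0 ± 0.413 CPM per kilobase. Cacna1h was at 0.175 ± 0.0729, Hcn3 at 0.0562 ± 0.0319 and the mainly neuronal Cacna1i at 0.00547 ± 0.00532 CPM per kilobase. Each gene in this order was above the next in 21 of 21 mice. With the length of the longest transcript in place of all exons, Cacna1g was at 4.85 ± 0.473 CPM per kilobase in WT-CD hearts. Hcn3 had 2 to 17 counts per heart and Cacna1i 0 to 6, near the floor of 3 counts, which is 0.0621 to 0.127 CPM in these libraries, and neither was tested. Exons of Hcn3 share 711 bp with exons of Pklr on the opposite strand, so that its counts are uncertain if the counting took no account of strand.

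**Figure D1:**
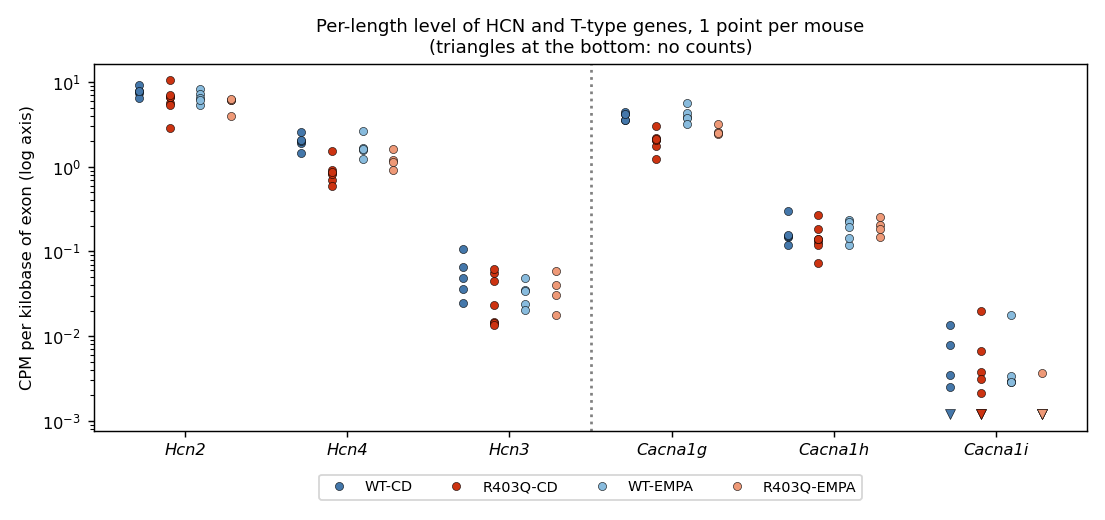
CPM per kilobase of exon (vertical log axis) of 3 HCN and 3 T-type genes, with 1 point per mouse coloured by group and triangles at the bottom for mice with no counts. Hcn2 lies highest of the HCN genes shown and Cacna1g highest of the T-type genes in every mouse.

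Among T-type genes Cacna1g held at least 88.3% of the per-length total in every mouse. The T-type total was therefore mainly that of Cacna1g, at 4.19 ± 0.424 CPM per kilobase in WT-CD, 2.24 ± 0.558 in R403Q-CD, 4.36 ± 0.928 in WT-EMPA and 2.88 ± 0.384 in R403Q-EMPA hearts.

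On the control diet, R403Q-CD was set against WT-CD to describe the genotype difference. The lower levels of Hcn4 and Cacna1g there are the reason for their selection, so the values are given without a test. Hcn4 was at 11.6, 12.2, 12.5, 15.9 and 8.88 CPM in the WT-CD mice, and at 3.66 to 9.43 CPM (median 5.16) in the 7 R403Q-CD mice. The groups met at 1 mouse, since the highest R403Q-CD heart (9.43 CPM, replicate 6) lay above the lowest WT-CD heart (8.88 CPM, replicate 5), while the other 6 R403Q-CD hearts had at most 5.57 CPM. The fitted log2 fold change of Hcn4 was -1.15 (SE 0.205), a fold of 0.45. In bulk tissue, fewer cells that transcribe a gene and less RNA per cell cannot be told apart.

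Cacna1g was at 36.6, 42.7, 45.2, 36.3 and 42.2 CPM in WT-CD hearts and at 12.6 to 30.9 CPM (median 21.2) in R403Q-CD hearts. The groups did not overlap, an order that 1.01% of all genes tested also showed in this direction. The fitted log2 fold change was -0.94 (SE 0.153), a fold of 0.52. The remaining members lay outside the selection, with log2 fold changes of -0.29 (SE 0.199) for Hcn2 and -0.21 (SE 0.271) for Cacna1h and overlapping groups for both. The value of Hcn2 was -0.16 without R403Q-CD replicate 2 and -0.45 without R403Q-CD replicate 3. In this contrast 250 genes passed an adjusted p under 0.05 (1.44% of those tested) and 97 of them were lower in R403Q-CD (0.56%), Hcn4 and Cacna1g among them as the rule required. With scaling to library size alone 352 genes passed, of which 78 were lower.

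**Figure D2:**
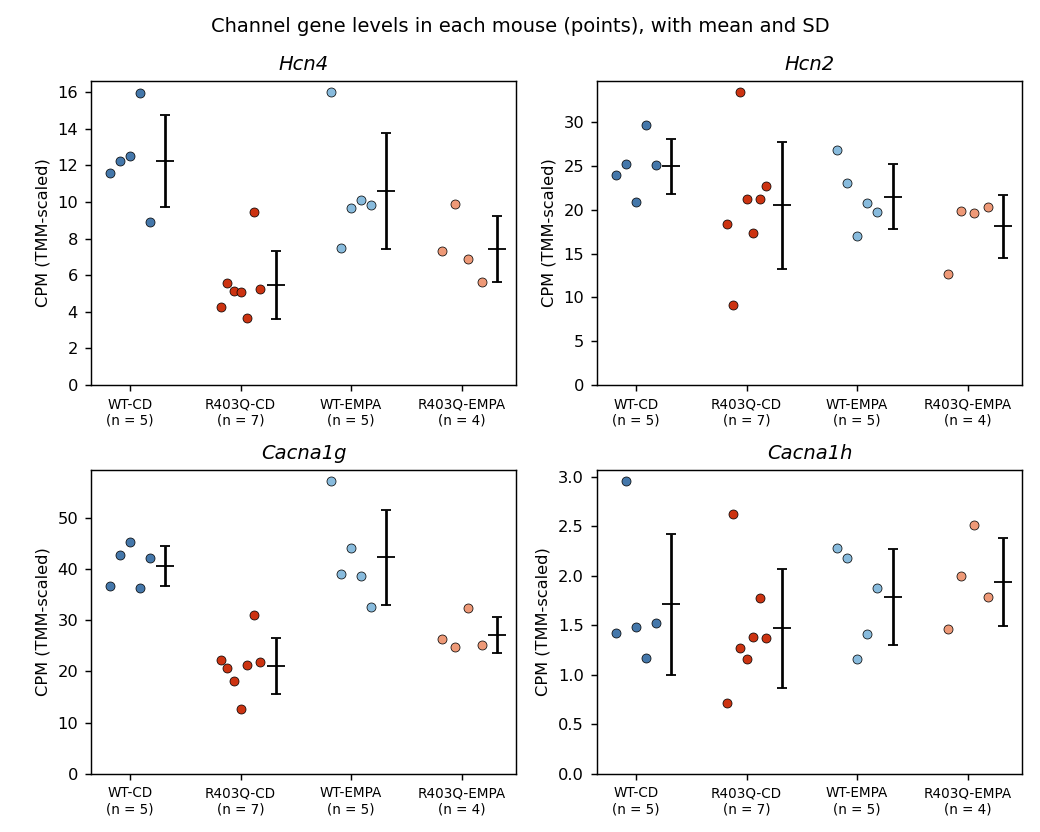
CPM (TMM-scaled, vertical axes from 0) of Hcn4, Hcn2, Cacna1g and Cacna1h in each mouse (points) of the 4 groups, with the mean and SD beside them. R403Q-CD hearts sit below WT-CD hearts for Cacna1g and, apart from 1 mouse at 9.43 CPM, for Hcn4, and all 4 R403Q-EMPA hearts sit below the 5 WT-EMPA hearts for Cacna1g.

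The rule that chose the genes used no mice on the EMPA diet, so R403Q-EMPA against WT-EMPA is the contrast in which the members were tested. This contrast asks whether the genotype difference was also present in animals that received EMPA. The members were chosen with earlier results of these data known, so the contrast is not wholly independent of that choice. Of the 4 members, 0 passed an adjusted p under 0.05 in edgeR, in a contrast where 10 genes passed (0.0578% of those tested) and 2544 had an unadjusted p under 0.05. Of the 10 genes 4 were lower in R403Q-EMPA, and with scaling to library size alone 13 genes passed, of which 3 were lower. In DESeq2 297 genes passed, and Cacna1g was 1 of them.

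Cacna1g was at 57.2, 39.0, 44.2, 38.6 and 32.6 CPM in WT-EMPA hearts and at 26.3, 24.8, 32.3 and 25.1 CPM in R403Q-EMPA hearts. The groups did not overlap, although the highest R403Q-EMPA heart (32.3 CPM) and the lowest WT-EMPA heart (32.6 CPM) almost met, beside 3.41% of all genes tested that were likewise lower without overlap. The log2 fold change was -0.64 (SE 0.178, 95% interval -1.01 to -0.27), a fold of 0.642. The exact two-sided permutation test on log2 CPM gave p = 0.0159, the smallest value that 126 splits of 4 against 5 mice allow. It exchanges mice across cages, and with cage as a factor in the fit the log2 fold change was -0.40 (edgeR adjusted p = 0.334). Over all genes the adjusted p was 0.127 in edgeR and 0.0295 in DESeq2, and it ran from 0.0549 to 0.343 over the other fits, including those that left out a mouse of either group.

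Hcn4 was at 16.0, 7.49, 9.66, 10.1 and 9.82 CPM in WT-EMPA hearts and at 7.33, 9.91, 6.89 and 5.64 CPM in R403Q-EMPA hearts. The groups overlapped, with 1 WT-EMPA heart at 7.49 CPM and 1 R403Q-EMPA heart at 9.91 CPM. The log2 fold change was -0.51 (SE 0.239, 95% interval -1.0 to -0.01), with an adjusted p of 0.326 in edgeR and an exact two-sided permutation p of 0.0794. Without the highest WT-EMPA heart (replicate 1, 16.0 CPM), the log2 fold change was -0.31 (edgeR adjusted p = 0.645).

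Hcn2, the most abundant member per kilobase of exon, was at 26.9, 23.1, 17.0, 20.7 and 19.8 CPM in WT-EMPA hearts and at 12.7, 19.8, 19.6 and 20.4 CPM in R403Q-EMPA hearts. Its groups overlapped, and its log2 fold change was -0.25 (95% interval -0.72 to 0.23, edgeR adjusted p = 0.642, exact permutation p = 0.254). It was -0.11 without R403Q-EMPA replicate 1, the lowest heart, and -0.15 without WT-EMPA replicate 1, the highest. Cacna1h was at 2.28, 2.18, 1.16, 1.41 and 1.88 CPM in WT-EMPA hearts and at 1.46, 1.99, 2.51 and 1.78 CPM in R403Q-EMPA hearts, 35 to 92 counts per heart. Its log2 fold change was 0.12 (95% interval -0.52 to 0.76, edgeR adjusted p = 0.878, exact permutation p = 0.603). The interval of Hcn2 includes the value of Cacna1g (-0.64), and that of Cacna1h extends in both directions.

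**Figure D3:**
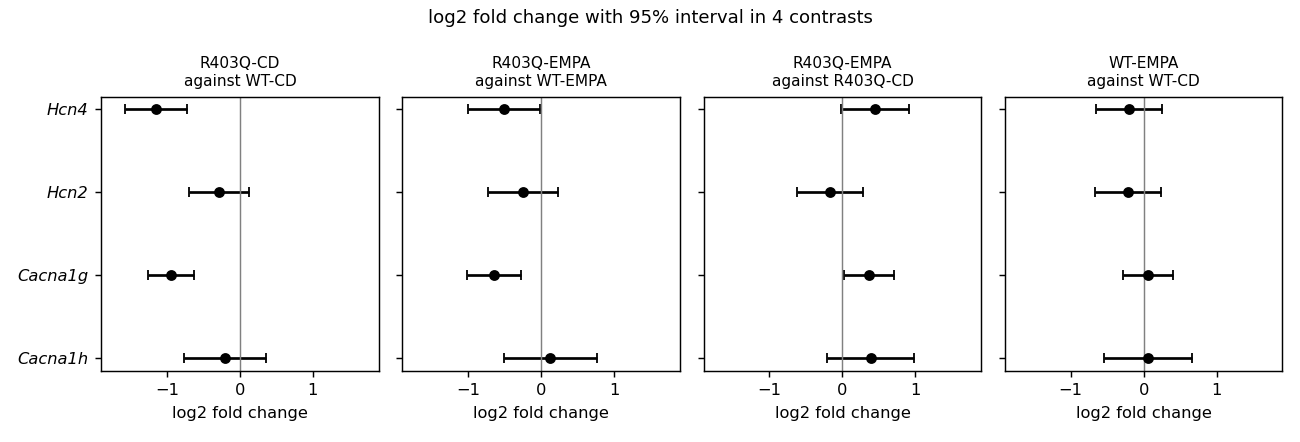
Log2 fold changes (horizontal axes) with 95% intervals from the edgeR fit of 4 groups, for the 4 members in 4 contrasts. Cacna1g and Hcn4 lie to the left of 0 in both genotype contrasts, and the members lie near 0 in wild-type hearts between diets. The intervals are not adjusted for the number of genes tested, and Hcn4 and Cacna1g were chosen on the leftmost contrast.

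The diet contrasts share mice with the contrast that chose Hcn4 and Cacna1g, so these genes are described there without a test. In R403Q hearts the log2 fold change of EMPA against the control diet was 0.44 (SE 0.223) for Hcn4 and 0.36 (SE 0.165) for Cacna1g. When each mouse was left out these values ran from 0.27 (without R403Q-EMPA replicate 2) to 0.63 (without R403Q-CD replicate 6) for Hcn4, and from 0.26 (without R403Q-EMPA replicate 3) to 0.48 (without R403Q-CD replicate 6) for Cacna1g. The ranges overlapped for both, with Hcn4 at 5.64 to 9.91 CPM on EMPA and 3.66 to 9.43 CPM on the control diet, and Cacna1g at 24.8 to 32.3 CPM and 12.6 to 30.9 CPM. In wild-type hearts the corresponding values were -0.20 (SE 0.22) for Hcn4 and 0.06 (SE 0.165) for Cacna1g. When each mouse was left out they ran from -0.40 to -0.09 for Hcn4 and from -0.07 to 0.14 for Cacna1g. The difference between the genotype contrasts of the diets, the interaction, was 0.65 (SE 0.314) for Hcn4 and 0.30 (SE 0.234) for Cacna1g on the log2 scale. In the interaction 0 of 17309 genes passed in edgeR, with 567 at an unadjusted p under 0.05, and 0 passed in DESeq2 and in limma.

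Hcn2 and Cacna1h were tested for diet and passed in none of the contrasts. In R403Q hearts the log2 fold change was -0.17 for Hcn2 (95% interval -0.62 to 0.28, edgeR adjusted p = 0.765) and 0.39 for Cacna1h (95% interval -0.21 to 0.99, edgeR adjusted p = 0.583). When each mouse was left out, the Hcn2 value ran from -0.31 (without R403Q-CD replicate 2) to -0.0136 (without R403Q-CD replicate 3). The Cacna1h value ran from 0.23 to 0.60. In wild-type hearts the log2 fold change was -0.22 for Hcn2 (95% interval -0.66 to 0.23, edgeR adjusted p = 0.756) and 0.05 for Cacna1h (95% interval -0.55 to 0.66, edgeR adjusted p = 0.971). Few genes passed at all, 2 in R403Q hearts (0.0116%) and 5 in wild-type hearts (0.0289%). No cage held both diets, so that cage and diet cannot be told apart.

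Genotype, in contrast, could be compared among mice of the same cage. All 4 control-diet cages held both genotypes, and 2 of the 3 EMPA cages did. Every R403Q heart lay below every wild-type heart of its own cage for Cacna1g, in 4 of 4 control-diet and 2 of 2 EMPA cages. Of all genes tested, 6.66% showed this order in 4 of 4 control-diet cages, whose values chose the gene, and 17.8% in both EMPA cages, where each cage sets 2 mice against 1. The within-cage log2 ratios of Cacna1g ran from -0.72 to -1.27 on the control diet and were -0.60 and -0.20 in the EMPA cages. For Hcn4 all R403Q hearts were below the wild-type hearts in 3 of 4 control-diet cages and in 2 of 2 EMPA cages, and 22.0% of all genes tested had this order in at least 3 control-diet cages. Hcn2 also had this order in 3 of 4 control-diet cages, and in 1 of 2 EMPA cages, whereas the mean of Cacna1h was higher in the R403Q mice of both EMPA cages. The exception for Hcn4 was cage 68666, in which the R403Q mice averaged 6.11 CPM and the wild-type mouse had 8.88 CPM. With cage as a factor in the fit of the EMPA mice, the log2 fold change was -0.40 for Cacna1g (edgeR adjusted p = 0.334) and -0.44 for Hcn4 (edgeR adjusted p = 0.492). The fit of the same 2 groups without the factor gave -0.65 for Cacna1g (edgeR adjusted p = 0.0574) and -0.51 for Hcn4 (edgeR adjusted p = 0.206). The cage with wild-type mice only (68691) held the 3 WT-EMPA hearts with the highest levels of Cacna1g, at 57.2, 44.2 and 39.0 CPM.

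**Figure D4:**
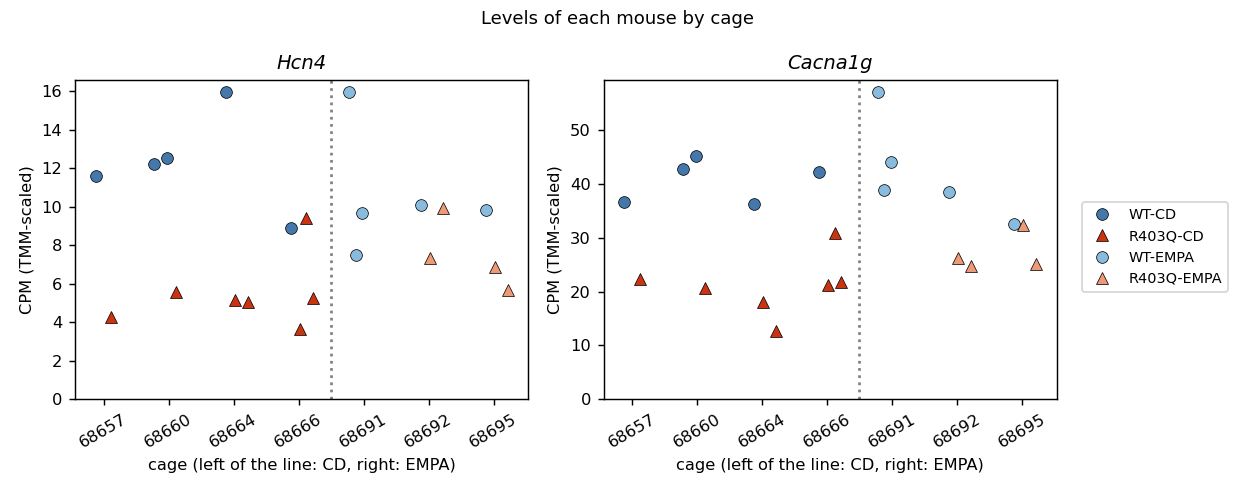
CPM (TMM-scaled, vertical axes from 0) of Hcn4 and Cacna1g in each mouse, placed by cage, with circles for wild-type and triangles for R403Q mice and a dotted line between the control-diet and the EMPA cages. In each cage with both genotypes the triangles lie below the circles for Cacna1g, and for Hcn4 with the exception of 1 mouse in cage 68666.

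The LV samples were checked for other cell types and heart regions. The 8 ventricular myocyte markers, Myl2, Myl3 and Myh6 among them, were all present and summed to 54320 to 96320 CPM per heart. The lowest sum was that of R403Q-CD replicate 2, which also had the highest Nppa (11000 CPM), the highest fibroblast marker sum (5353 CPM, against 1061 to 2823 CPM in the other hearts) and the lowest Hcn2 (9.17 CPM). Atrial tissue is a known source of HCN and T-type transcripts, and the atrial light chain gene Myl7 varied from 0.146 to 180 CPM. It was above 50 CPM in 3 hearts: R403Q-CD replicate 2 (180 CPM), WT-CD replicate 5 (108 CPM) and R403Q-CD replicate 6 (70.4 CPM). The latter was the R403Q-CD heart with the highest Hcn4 (9.43 CPM), and WT-CD replicate 5 had the lowest Hcn4 of its group (8.88 CPM). Without these 3 hearts, a choice made after the data were seen, the log2 fold change of R403Q-CD against WT-CD was -1.48 for Hcn4 and -1.06 for Cacna1g. In the contrast of the EMPA mice, in which none of them takes part, the edgeR adjusted p of Cacna1g was 0.0549 in that fit. Among the EMPA hearts Myl7 was highest in WT-EMPA replicate 1, at 37.8 CPM against at most 13.9 CPM in the other 8, and this heart also had the highest Hcn4 (16.0 CPM) and Cacna1g (57.2 CPM) of them. Without it the log2 fold change of R403Q-EMPA against WT-EMPA was -0.31 for Hcn4 and -0.51 for Cacna1g, and the part of atrial tissue in these values was not tested. Of 7 tested atrial markers Nppa alone passed in a contrast in edgeR. It was 2.73 higher on the log2 scale in R403Q-CD than in WT-CD hearts (SE 0.586, edgeR adjusted p = 0.0248) and 1.80 higher without R403Q-CD replicate 2. In R403Q-CD hearts with little Myl7, Nppa was at 930 CPM (replicate 3, Myl7 0.262 CPM), 1438 CPM (replicate 4, Myl7 1.28 CPM) and 1151 CPM (replicate 7, Myl7 1.66 CPM). WT-CD hearts had at most 595 CPM of Nppa, and the part of atrial tissue in the Nppa difference was not tested. Bmp10 was at 0.111 CPM or less in every heart. Sums of the 7 atrial markers other than Nppa were 116 to 207 CPM in WT-EMPA and 110 to 152 CPM in R403Q-EMPA hearts.

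Hcn4 and Cacna1g are also genes of the conduction system. The 13 conduction markers, all of them tested, summed to 202 to 268 CPM in WT-CD, 164 to 224 CPM in R403Q-CD, 195 to 230 CPM in WT-EMPA and 201 to 243 CPM in R403Q-EMPA hearts. Of these 13 genes, 0 passed in any contrast in edgeR. The most abundant, Smoc2, weighs most in these sums, which therefore do not measure the amount of conduction tissue. Smoc2 was at 89.2 ± 13.4 CPM in WT-CD and 77.3 ± 12.8 CPM in R403Q-CD hearts, and at 72.0 ± 14.5 and 82.6 ± 10.5 CPM in WT-EMPA and R403Q-EMPA hearts. Irx3, a transcription factor of the ventricular conduction system, was at 21.5 to 29.5 CPM in WT-CD and 7.14 to 23.5 CPM in R403Q-CD hearts. On the EMPA diet Irx3 was at 23.0 to 32.5 and 12.1 to 22.5 CPM in WT-EMPA and R403Q-EMPA hearts, without overlap (beside 3.41% of all genes tested that were likewise lower). Its log2 fold change between genotypes was -0.62 (SE 0.222, edgeR adjusted p = 0.13) on the control diet and -0.73 (SE 0.26, edgeR adjusted p = 0.207) on the EMPA diet, and it passed in neither, also in DESeq2. Cntn2, a cell adhesion gene that defines the Purkinje fibre network and was picked here after its values were seen, ranged from 1.49 to 19.1 CPM over all mice, and its log2 fold change between genotypes was -0.59 on the control diet (-0.86 to -0.27 when each mouse was left out, the latter without WT-CD replicate 2) and 0.14 on the EMPA diet. The list's median log2 fold change was -0.15 on the control diet and 0.11 on the EMPA diet, beside 0.01 for all genes in both. Of the 13 genes 3 were negative and 2 positive on both diets, beside 33.45% and 37.7% of all genes tested.

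Among markers of non-myocytes, 2 of 6 macrophage markers passed in edgeR. The macrophage gene Csf1r was 0.45 higher on the log2 scale in R403Q-CD than in WT-CD hearts (SE 0.099, edgeR adjusted p = 0.0254) and Adgre1 0.67 higher (SE 0.158, edgeR adjusted p = 0.0351). Their values on the EMPA diet were 0.48 (edgeR adjusted p = 0.0859) and 0.59 (edgeR adjusted p = 0.148). Macrophage markers summed to 252 to 342 CPM in WT-CD, 353 to 625.4 CPM in R403Q-CD, 217 to 378 CPM in WT-EMPA and 407 to 495 CPM in R403Q-EMPA hearts. Fibroblast markers summed to 1180 to 1908 CPM, 1585 to 5353 CPM, 1061 to 1664 CPM and 1735 to 2222 CPM in the same order, and 0 of 7 passed in any contrast in edgeR. The ventricular myocyte sum was 86180 to 95530 CPM in WT-CD and 54320 to 87430 CPM in R403Q-CD hearts. On the EMPA diet it was 81370 to 96320 CPM in WT-EMPA and 73140 to 84380 CPM in R403Q-EMPA hearts. Its largest part was Myh6, the gene that carries the mutation, with means of 43240 and 32930 CPM in WT-CD and R403Q-CD hearts. The Myh6 means were 45220 and 34800 CPM in WT-EMPA and R403Q-EMPA hearts. Of the 8 genes 0 passed in any contrast in edgeR. On both diets 4 were negative and 2 positive between genotypes, beside 33.45% and 37.7% of all genes tested. The part of the shifts of these marker sums in the levels of Hcn4 and Cacna1g was not tested. Of 6 endothelial, 6 smooth muscle and pericyte and 5 tested neuron and Schwann markers, 0 passed in any contrast in edgeR. Log2 fold changes between genotypes were positive on both diets for 7 of 7 fibroblast, 6 of 6 endothelial and 5 of 6 macrophage markers, beside 37.7% of all genes tested, and for 3 of 6 smooth muscle and pericyte markers. The endothelial count was 5 of 6 in DESeq2, and the macrophage count was 6 of 6 with scaling to library size alone.

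Around the channel pores, the genes that set cyclic AMP, the ligand of HCN channels, were examined next. Adcy5, a main adenylyl cyclase of cardiac myocytes, was lower in R403Q-CD hearts at 108 to 149 CPM (median 115) than in WT-CD hearts at 163, 162, 143, 167 and 135 CPM. The log2 fold change was -0.35 (SE 0.0789, edgeR adjusted p = 0.0294), and the groups overlapped. On the EMPA diet Adcy5 was at 159 to 201 CPM in WT-EMPA and 123 to 140 CPM in R403Q-EMPA hearts, without overlap (beside 3.41% of all genes tested that were likewise lower). The log2 fold change of Adcy5 there was -0.40 (SE 0.0915, edgeR adjusted p = 0.084). Of the 13 genes of this list, Adcy5 alone passed in the edgeR fit of all mice. On both diets 9 had a negative log2 fold change (69.2%) beside 33.4% of all genes tested, or 8 of 13 with scaling to library size alone. The list's median was -0.17 on the control diet and -0.23 on the EMPA diet. Adcy6, the other main adenylyl cyclase of these cells, had a log2 fold change of -0.36 on the control diet (edgeR adjusted p = 0.0836), with an adjusted p of 0.0363 in DESeq2, 0.0468 without R403Q-CD replicate 1 and 0.0408 without R403Q-CD replicate 3. Gnas, the stimulatory G protein gene, was at 1030 ± 47 CPM in WT-CD and 1051 ± 68.4 CPM in R403Q-CD hearts.

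Other currents of the nodes and the conduction system, from 12 genes of which 11 were tested, had negative genotype values in most cases. Kcnk3, which encodes a background potassium channel, was lower in R403Q-CD hearts, at 160 to 248 CPM (median 207) against 261, 266, 273, 314 and 275 CPM in WT-CD hearts. Its log2 fold change was -0.45 (SE 0.105, edgeR adjusted p = 0.0351), and the groups did not overlap (beside 1.01% of all genes tested that were likewise lower). On the EMPA diet it was -0.39 (SE 0.122, edgeR adjusted p = 0.171). In the edgeR fit of all mice Kcnk3 alone passed in this list. Of the 11 genes 9 had a negative value on both diets (81.8%, or 8 genes with scaling to library size alone), beside 33.45% of all genes tested. The list's medians were -0.32 and -0.20. The abundant members Ryr2, the calcium release channel of the sarcoplasmic reticulum, and Slc8a1, the sodium-calcium exchanger, had control-diet values of -0.40 (edgeR adjusted p = 0.158) and -0.35 (edgeR adjusted p = 0.107). The calls of Adcy5, Kcnk3, Nppa, Csf1r and Adgre1 were each lost without WT-CD replicate 1, 2, 3 or 4 or R403Q-CD replicate 5 alone (adjusted p from 0.0504 to 0.112), and all 5 passed in DESeq2 (adjusted p from 0.000493 to 0.00414). With cage as a factor their adjusted p ran from 0.065 to 0.0901, and with the 2 control-diet groups alone from 0.093 to 0.128. The calls of Adcy5, Kcnk3, Nppa and Adgre1 were also lost in the fit without WT-EMPA (adjusted p from 0.0526 to 0.0636), and that of Kcnk3 without WT-CD replicate 5 (adjusted p = 0.051) and without the 3 hearts with high Myl7 (adjusted p = 0.0963). On the EMPA diet Adcy5 and Csf1r passed in DESeq2 (adjusted p = 0.00856 and 0.0142) and in edgeR without WT-EMPA replicate 3 (adjusted p = 0.0466 and 0.0491). In edgeR Adcy5 and Adgre1 passed there with the 2 EMPA groups alone (adjusted p = 0.0433 and 0.0418), and Adcy5, Csf1r and Adgre1 passed without the 3 hearts with high Myl7 (adjusted p from 0.0191 to 0.0407).

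The other calcium channels are those of high-voltage activation. Of 16 genes 13 were tested, and 0 passed in any contrast in edgeR. On both diets 5 were negative and 5 positive, beside 33.45% and 37.7% of all genes tested. Cacna1c, the L-type pore of the working ventricle, was at 448 ± 40.1 CPM in WT-CD and 335 ± 85.2 CPM in R403Q-CD hearts (log2 fold change -0.42, edgeR adjusted p = 0.106). Cacna2d1, an auxiliary subunit, was at 294 ± 32.1 and 232 ± 26.2 CPM (log2 fold change -0.34, edgeR adjusted p = 0.059, DESeq2 adjusted p = 0.017). In edgeR Cacna2d1 passed without WT-CD replicate 5 or R403Q-CD replicate 1 or 3 (adjusted p from 0.0261 to 0.0443), and Cacna1c without R403Q-CD replicate 3 (adjusted p = 0.0361). On the EMPA diet Cacna2d1 passed in DESeq2 (log2 fold change -0.41, adjusted p = 0.0233).

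Of the HCN partners, 7 of 8 were tested and 0 passed in any contrast in edgeR. Flna, a cytoskeletal protein that binds HCN channels, and Cav3, the caveolin of muscle, were the most abundant, with log2 fold changes of 0.13 and 0.02 on the control diet and -0.08 and 0.15 on the EMPA diet. Of the 7 genes 4 were positive and 2 negative on both diets, beside 37.7% and 33.45% of all genes tested. Lrmp, a partner of HCN4 that was picked after its values were seen, was at 1.83 to 3.64 CPM in WT-CD, 3.55 to 4.35 CPM in R403Q-CD, 1.85 to 3.09 CPM in WT-EMPA and 3.12 to 4.27 CPM in R403Q-EMPA hearts. Its log2 fold change was 0.52 (edgeR adjusted p = 0.0629, DESeq2 adjusted p = 0.0172, limma adjusted p = 0.0489) on the control diet and 0.63 (edgeR adjusted p = 0.113, DESeq2 adjusted p = 0.0243) on the EMPA diet, and in edgeR it passed on the control diet without WT-CD replicate 5, without R403Q-CD replicate 3 and without the 3 hearts with high Myl7 (adjusted p from 0.0319 to 0.0472). Which cells of the tissue held the RNA of Lrmp was not tested.

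Transcription factors of the pacemaker and working myocardial programmes were tested for 18 of 19 genes, and 0 passed in any contrast in edgeR. Of the 18, 13 were negative on both diets (72.2%, or 9 genes with scaling to library size alone), beside 33.45% of all genes tested. The list's medians were -0.15 and -0.10. Mef2a, a myocyte enhancer factor, was at 285 ± 6.47 CPM in WT-CD and 244 ± 25 CPM in R403Q-CD hearts (log2 fold change -0.23, edgeR adjusted p = 0.0629, DESeq2 adjusted p = 0.0135), and it passed in edgeR without R403Q-CD replicate 1, 3 or 6 (adjusted p from 0.0359 to 0.0469). Hopx, a homeodomain protein of cardiac myocytes, was at 374 ± 12.7 and 317 ± 108 CPM (log2 fold change -0.24, edgeR adjusted p = 0.532), and its value was -0.0935 without R403Q-CD replicate 2.

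**Figure D5:**
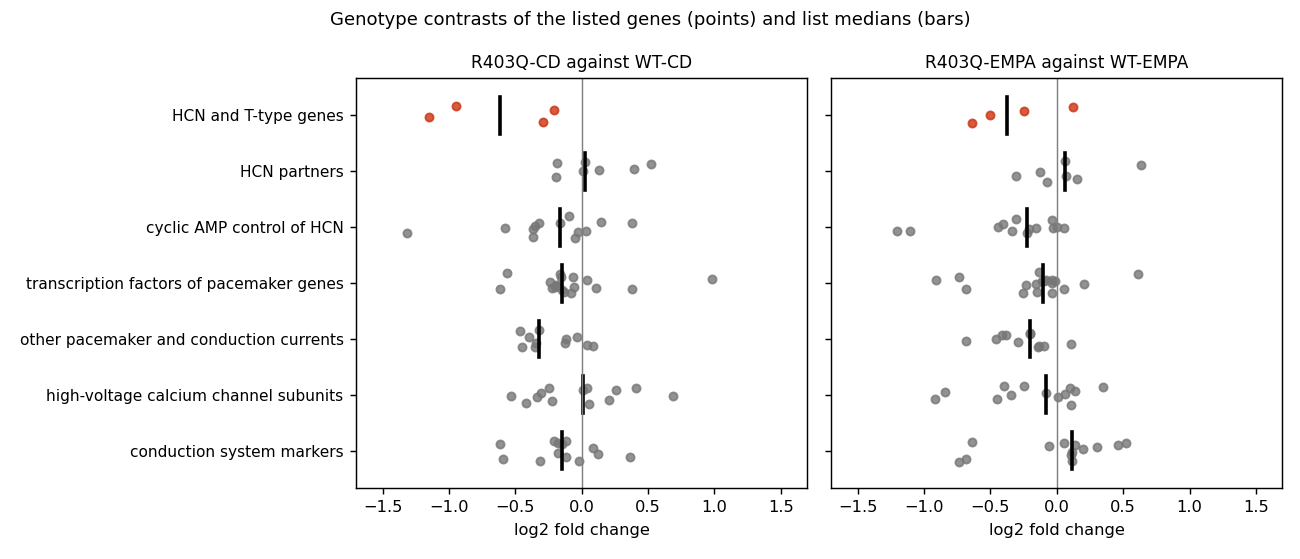
Log2 fold changes (horizontal axes) of R403Q against wild-type hearts on the control diet (left) and on the EMPA diet (right) for the members (red points) and the genes of 6 lists (grey points), with bars at the list medians. Points of the cyclic AMP and conduction current lists lie mostly to the left of 0 on both diets, with medians from -0.17 to -0.32, and high-voltage calcium channel genes lie on both sides of 0.

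The clock genes were read as a check on the time of day at which tissue was taken. Of 14 genes 0 passed in any contrast in edgeR, but 9 had an unadjusted p under 0.05 in each diet contrast, as had 13.4% of all genes tested in R403Q and 11.0% in wild-type hearts. Arntl, a core clock gene picked after its values were seen, was at 1.27 to 4.17 CPM in WT-CD and 1.27 to 6.81 CPM in R403Q-CD hearts, and at 1.99 to 13.5 CPM and 3.35 to 17.1 CPM in WT-EMPA and R403Q-EMPA hearts. Diet contrasts of the channel genes were made across this difference, and its part in them was not tested. The range of Arntl overlapped between the genotypes on each diet.

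Correlations between the members within the groups were low. After subtraction of the group means, the correlation of log2 CPM over the 21 mice was 0.391 for Hcn4 with Cacna1g, and -0.151 when the 2 mice farthest from the median of Hcn4 were left out, so that it rests on those mice. It was 0.148 for Hcn4 with Hcn2 and 0.28 for Cacna1g with Cacna1h. Genes most like each member were sought among 14106 genes of at least 1 CPM on average, and the values are descriptions, since the points share library and depth. For Hcn4 they were Lamb1 (r = 0.811, rho = 0.838), Myadml2, Tox, Gipc3 and Cxadr (r = 0.743), and r was 0.621 to 0.77 without the 2 mice farthest from the median of Hcn4. For Hcn2 they were Zyg11b (r = 0.934, rho = 0.908), Clpb, Ahcyl2, Ptprm and Lrba (r = 0.908), with r of 0.727 to 0.881 without 2 mice. For Cacna1g the values were lower, with Zfp523 (r = 0.742, rho = 0.644), Trim11, Pcsk7, Morc4 and B130055M24Rik (r = 0.715), and r of 0.481 to 0.579 without 2 mice. For Cacna1h they were Hacd3 (r = 0.868, rho = 0.847), Zdhhc8, Nav1, Gm28875 and Tbc1d1 (r = 0.82).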

How the data were processed

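RNA of frozen left ventricles was selected for poly(A), sequenced as read pairs and aligned to mm10 with STAR 2.6.0c by the authors. They deposited counts of uniquely aligned proper pairs, described as same strand, on Ensembl genes from featureCounts (Subread 1.6.2). Mitochondrial genes were left out. The deposited log2 values are the authors' variance-stabilized counts from DESeq2 1.32.0 and served an alternative only. Groups came from the labels, which tie each sample to 1 mouse and its cage, and 0 columns were left out. Counts were tested in R 4.3.3 with edgeR 4.0.16 (quasi-likelihood test): 4 groups in 1 fit, genes kept by filterByExpr (minimum count 10), TMM scaling and Benjamini-Hochberg adjustment over 17309 genes. Exact permutation tests used log2 CPM (prior count 2). Alternatives were DESeq2 1.42.0, limma 3.58.1, no filter, library size alone, fewer groups, cage as a factor, leaving out each mouse and, added after seeing the data, leaving out 3 mice. The test was tried on simulated data. Gene names, exon lengths and coordinates were read from GENCODE (GRCm38), and promoters from RefSeq. Results for 1 related gene are not reported here. Members and lists were chosen with earlier results of these data known. Named genes were HCN and T-type genes, from each list those past the threshold or otherwise at most the 2 most abundant, and the 5 most correlated with each member, with exceptions marked.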

Additional observations from a re-analysis of the deposited data

Results flagged for a closer look

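Among 16 combinations of gene and group, 3 mice stood apart from their group by the gap to the nearest mouse relative to the range (Dixon's criterion, which chance meets in about 1 of 20 groups). Hcn4 in R403Q-CD replicate 6 was at 9.43 CPM, with the next mouse at 5.57 CPM, and this heart also had 70.4 CPM of the atrial gene Myl7. Hcn2 in R403Q-EMPA replicate 1 was at 12.7 CPM, with the next mouse at 19.6 CPM. Cacna1h in WT-CD replicate 2 was at 2.96 CPM, with the next mouse at 1.52 CPM. The causes were not tested.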

How the results depend on the processing

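The log2 fold changes of Hcn4, Cacna1g and Hcn2 in both genotype contrasts kept their sign under every alternative run. The labels give cages in place of replicate numbers, and cage as a factor was the blocked fit. Cacna1g on the EMPA diet passed in DESeq2 (-0.65, adjusted p 0.0295) and missed the threshold in the other fits, and its level in WT-CD moved to 4.85 CPM per kilobase with the longest transcript. Counts of genes past the threshold depended most on the fit. On the EMPA diet the genotype count of 10 was 297 in DESeq2, 123 with these 2 groups alone, 6 with cage as a factor, 157 without the 3 hearts with high Myl7, and 1 to 64 when each mouse was left out (1 without R403Q-EMPA replicate 1, 64 without WT-EMPA replicate 3). On the control diet the count of 250 was 971 in DESeq2, 28 with these 2 groups alone, 98 without WT-EMPA, 19 with cage as a factor and 31 to 1045 when each mouse was left out (31 without WT-CD replicate 3, 1045 without R403Q-CD replicate 3). The diet count of 2 in R403Q hearts was 145 in DESeq2, 5 with library size alone, 0 with these 2 groups alone, 0 without WT-EMPA, 11 without the 3 hearts and 0 to 12 without single mice. The diet count of 5 in wild-type hearts was 114 in DESeq2, 0 with library size alone and 0 to 7 without single mice. Fits with fewer mice gave both lower and higher counts, and the cause of these moves was not tested. Small values changed sign: Hcn2 in the interaction (-0.11 without the 3 hearts, and -0.0884 to 0.203 without single mice), and without single mice Cacna1h in the genotype contrasts (-0.0386 to 0.236 on EMPA, -0.432 to 0.0873 on the control diet, positive only without WT-CD replicate 2) and Cacna1h and Cacna1g in wild-type hearts between diets (-0.055 to 0.351 and -0.0745 to 0.139). Single reversals were -0.00463, -0.055, -0.0498 and -0.0276 for Cacna1h between diets, and -0.0256, -0.029, -0.0884 and -0.0151 for Hcn2. Of the other named genes, Gnas on EMPA turned positive with library size alone (0.0204) and Cav3 on the control diet turned negative without the 3 hearts (-0.0685), and without single mice Flna ran from -0.171 to 0.0184 on EMPA and from -0.0329 to 0.317 on the control diet, Gnas from -0.0082 to 0.0504 and Cav3 from -0.0522 to 0.0608 on the control diet, and Cntn2 from -0.0674 to 0.535 on EMPA. Without subtraction of group means, 1, 2, 0 and 1 of the first 5 genes most like Hcn4, Hcn2, Cacna1g and Cacna1h were shared. Cacna1h, at 22 to 127 counts per heart, is the member in which depth limits the precision most.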
